A study of Mus musculus with 2 samples.

Results

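The 47 genes described here lie in the imprinted domains of the mouse genome, from H19 and Igf2 to Kcnk9 and Trappc9. They were chosen by name as well-known imprinted-domain genes. The rule uses no measured value, but it was proposed with earlier results of these data known. All 47 were found among the 55413 genes of GENCODE vM21 on chromosomes 1 to 19, X and Y (build mm10). Members less than 500 kb apart were joined and 50 kb was added at each end, which gave 18 domains on 9 chromosomes and 6.08 Mb of sequence without N bases. These domains held the summits of 26 of the 12554 EHMT2 peaks on chromosomes 1 to 19, X and Y. The list is shorter than the number of ChIP-exo peaks given in the study's text, so every count, and every site without a peak, refers to the deposited list alone.

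EHMT2 (G9a) is a histone methyltransferase that places H3K9me2, a mark of repressed chromatin. Its occupancy was mapped by ChIP-exo, in which immunoprecipitated DNA is trimmed by an exonuclease up to the crosslinked protein. The series held 1 group of 2 replicates of EHMT2-dTAG-mcherry mouse embryonic stem cells (mESCs) of BL6/129 hybrid background. Both replicates carried a degron, HA tags and a mCherry reporter at the end of the endogenous Ehmt2 gene, were kept in serum with LIF and were treated with DMSO, the solvent, for 24 h, so that EHMT2 was present. The antibody was directed against HA. The line was raised from picked clones, and whether the replicates were separate clones or separate cultures is not given in the sources used here. Untagged cells, EHMT2-depleted cells and other antibodies were not analysed here. The fragments of the replicates were merged before peaks were called, so no value below has a replicate error and no p-value is given. Intervals are 95% intervals and cover counting error only. Peaks that lie near each other and reads copied by PCR are not independent, so the true uncertainty is wider.

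At an imprinted gene, the copy from 1 parent is expressed and the other is silent. The choice is set by DNA methylation that a differentially methylated region (DMR) carries from the egg or the sperm, and it is kept in the embryo with the help of H3K9 methylation and the zinc finger protein ZFP57. Several domains also express a long noncoding RNA, such as Airn or Kcnq1ot1, whose transcription silences neighbours on the same chromosome copy, and EHMT2 is known for a part in this silencing in the placenta. A peak list cannot tell which parental copy a fragment came from, and mESCs need not show the imprinted expression of the placenta or brain.

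Sequences under peaks in or near members are shown first, as examples of 3 kinds of site. The first set holds the peaks at the promoters of members and the domain peak with the highest fold. This kind had a summit whose 50 bp occurred once in the assembly and lay outside a tandem array. They are given 5′ to 3′ on the strand of the gene, which is the minus strand in each case, with the 50 bp at the summit in capitals. The Mkrn3 sequence is chr7:62420140-62420403, all of it upstream of the gene start. The Kcnk9 distal peak is chr15:72568650-72568793, and the Kcnk9 promoter peak is chr15:72547889-72548031.
Mkrn3 promoter: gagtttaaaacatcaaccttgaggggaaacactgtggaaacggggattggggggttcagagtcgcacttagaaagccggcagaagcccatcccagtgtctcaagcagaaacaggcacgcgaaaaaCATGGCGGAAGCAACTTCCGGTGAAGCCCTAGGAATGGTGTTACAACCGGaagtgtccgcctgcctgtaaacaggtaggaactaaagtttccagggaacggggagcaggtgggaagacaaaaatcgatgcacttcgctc
Kcnk9 distal peak: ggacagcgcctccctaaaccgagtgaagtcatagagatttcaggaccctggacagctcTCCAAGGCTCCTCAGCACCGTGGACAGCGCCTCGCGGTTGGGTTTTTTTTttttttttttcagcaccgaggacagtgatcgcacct
Kcnk9 promoter peak: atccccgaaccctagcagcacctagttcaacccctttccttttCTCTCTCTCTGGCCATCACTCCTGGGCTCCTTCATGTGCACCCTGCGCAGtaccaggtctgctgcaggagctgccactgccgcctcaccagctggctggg

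The second kind was a GC-rich repeat of which nearly identical copies lay upstream of Herc3 (chr6:58791991-58792126), Snrpn (chr7:60163130-60163265) and Ndn (chr7:62335334-62335469). The 136 bp below are aligned on the plus strand, and capitals mark the 3 positions at which the sequences differ. The stretch upstream of Herc3 contains the summit of its peak. Those upstream of Snrpn and Ndn lie within their peaks but do not contain the summit.
Upstream of Herc3: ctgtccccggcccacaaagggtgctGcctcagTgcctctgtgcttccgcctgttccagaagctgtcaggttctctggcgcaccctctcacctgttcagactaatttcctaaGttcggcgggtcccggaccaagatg
Upstream of Snrpn: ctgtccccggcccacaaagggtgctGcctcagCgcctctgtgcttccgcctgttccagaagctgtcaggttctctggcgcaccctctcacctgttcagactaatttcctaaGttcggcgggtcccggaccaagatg
Upstream of Ndn: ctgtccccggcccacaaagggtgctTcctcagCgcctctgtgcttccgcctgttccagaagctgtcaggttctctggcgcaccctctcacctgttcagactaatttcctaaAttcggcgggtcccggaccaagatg

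The third kind was a short unit repeated head to tail. The stretches are chr2:174315574-174315704 on the plus strand in a Gnas intron, chr12:109591293-109591423 on the minus strand in the coding exon of Rtl1, and chr15:72783272-72783412 on the minus strand in a Trappc9 intron. Each is given in the sense of its gene, with 1 unit in capitals: 43 bp in Gnas, 33 bp in Rtl1 and 19 bp in Trappc9.
Gnas intron: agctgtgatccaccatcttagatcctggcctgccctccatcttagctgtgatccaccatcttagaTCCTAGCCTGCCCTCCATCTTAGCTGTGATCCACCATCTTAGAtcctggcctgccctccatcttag
Rtl1 coding exon: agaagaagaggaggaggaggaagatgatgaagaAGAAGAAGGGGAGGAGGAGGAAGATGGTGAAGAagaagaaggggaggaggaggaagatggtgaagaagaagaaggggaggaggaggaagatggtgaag
Trappc9 intron: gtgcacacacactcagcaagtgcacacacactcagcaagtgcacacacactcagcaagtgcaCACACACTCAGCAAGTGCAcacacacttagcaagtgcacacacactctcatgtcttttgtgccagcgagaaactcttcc

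EHMT2 peaks lay at the promoters of Mkrn3 and Kcnk9 and at no other member. The promoter was taken as the sequence from 2.5 kb upstream to 0.5 kb downstream of the gene start. The share was 4.26% (Wilson interval 1.17 to 14.2%), against 1.3% of all genes and 1.5% of protein-coding genes, and the low end of the interval lies below both. Protein-coding genes of the same length classes gave 0.728 genes for 47 members. When the start of every annotated transcript was used (335 starts), Mkrn3 and Kcnk9 were again the members with a peak. With 1 kb on either side of the start, Mkrn3 was the sole member left. The member just inside the promoter limit was Kcnk9 at 1624 bp, and the next was Commd1 at 8066 bp.

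Mkrn3 encodes a ubiquitin ligase that restrains the onset of puberty and is expressed from the paternal copy. Its peak (chr7:62420053-62420428) had its summit 115 bp upstream of the gene start. The summit was covered by 18 fragments, the authors' fold enrichment over local background was 9.17 and the −log10 q was 13.4. The list had a median of 8 fragments and a fold of 5.23, so this site lay above the typical peak. Only 0.532% of its bases were soft-masked as repeats, no other peak in the list had a similar sequence, and 9 CpG dinucleotides lay within 100 bp of the summit, against a median of 3 for peaks outside the domains. Domain peaks had a median of 4 CpGs and a highest count of 14, so the Mkrn3 count was not the highest among them. The site also lies in an intron of the annotated gene Gm32061, and Peg12 is the next gene on the other side.

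Kcnk9 encodes a potassium channel expressed from the maternal copy in the brain. Its promoter peak (chr15:72547889-72548031) lay 1624 bp upstream of the gene start and was weak, with 5 fragments, a fold of 4.27 and a −log10 q of 2.41. A second peak 22371 bp upstream (chr15:72568650-72568793) was the strongest of all 26 by fold, at 14.4, with 25 fragments and a −log10 q of 25.2. It lies between genes and is nearer to the end of Trappc9, at 20909 bp, than to Kcnk9. It was also unique in sequence and 24.3% soft-masked. Another, in a Kcnk9 intron (chr15:72523476-72523622), rested on 4 fragments with a fold of 3.79. The distal site was thus covered by more fragments than the promoter site and the intron site, both of which were below the median of the list.

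The germline DMRs were next, since DNA methylation differs there between the parental copies. For 13 members a promoter is known to lie at a germline DMR: Kcnq1ot1, Airn, Snrpn, Peg3, Usp29, Peg10, Sgce, Mest, Plagl1, Zrsr1, Nnat, Nap1l5 and Peg13. None had an EHMT2 peak at the promoter, and 13 genes allow a share of up to 22.8% (Wilson interval). Peg3 and Usp29 have overlapping promoter windows, as do Sgce and Peg10. The 13 genes are thus not 13 separate sites, and the true uncertainty is wider. Protein-coding genes of the same lengths gave 0.198 genes, so the count of 0 lay close to the background. The nearest summit lay at a median of 104224 bp from the start of these genes and 10704 bp at the least. Measured from any annotated transcript start the median was 89277 bp, and again no gene of the 13 had a summit within 10 kb. Grb10 and Impact, with a germline DMR, and Gnas, with several DMRs, were not counted in the 13. These genes had no promoter peak either, but Gnas had a body peak 11931 bp from an annotated transcript start.

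For Snrpn, Mest and Plagl1, the annotated start is not the promoter known to lie at the DMR. GENCODE places its start 135170 bp upstream of Snurf, the gene that shares the promoter at the DMR. The 10704 bp given above for Snrpn refer to that upstream start. From the Snurf start the nearest summit was 39212 bp away. The last RefSeq start of Mest lies 14506 bp downstream of the GENCODE start, and its nearest summit was 126160 bp away instead of 140666 bp. The RefSeq start of Plagl1 lies 30328 bp downstream, with the nearest summit at 53017 bp instead of 22689 bp. The sequence upstream of H19, which holds the paternally methylated control region of the Igf2 and H19 domain, had no peak in its first 10 kb, nor in the 72622 bp between H19 and Igf2. No peak lay in the 77664 bp between Dlk1 and Meg3, where the control region of that domain is known to be.

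**Figure D1:**
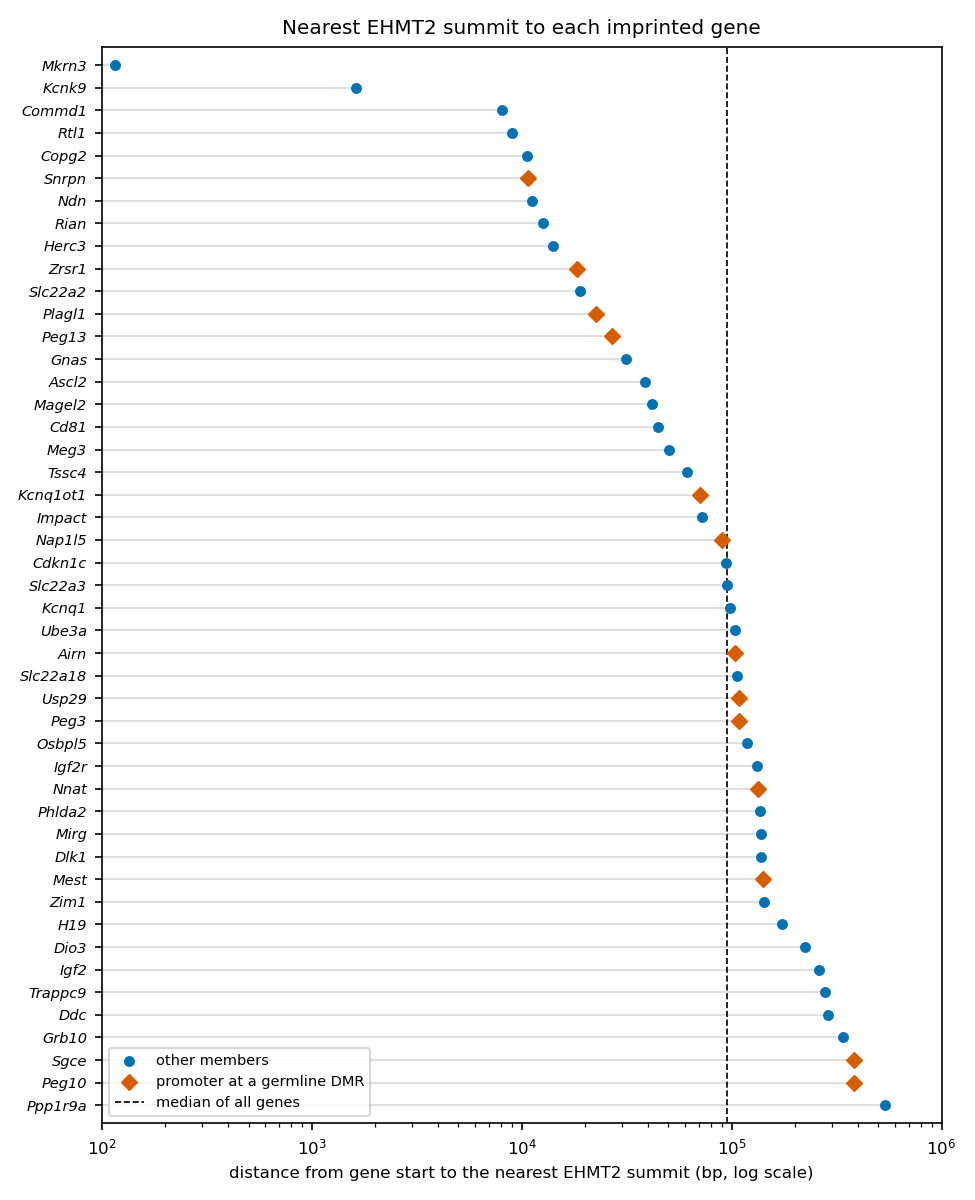
Distance in bp (log axis) from the start of each of the 47 members to the nearest EHMT2 summit, with the 13 members that have a promoter at a germline DMR as orange diamonds and the median of all genes as a dashed line. Mkrn3 (115 bp) and Kcnk9 (1624 bp) stand apart at the short end, and no germline DMR member lies closer than 10704 bp. Distances are from the GENCODE gene start, which for Snrpn, Mest and Plagl1 is not the promoter at the DMR.

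The plot of distances gives the same picture for the whole set. Members had a median of 95365 bp from gene start to nearest summit (range 115 to 537963 bp). The median was 95481 bp over all genes and 102348 bp over protein-coding genes, so the median of the members lay close to the first and slightly below the second. Summits within 10 kb of the start were found for 4 members (8.51%), namely Mkrn3, Kcnk9, Commd1 and Rtl1, against 6.60% of all genes.

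Peaks in the gene body were found in 9 members: Gnas, Copg2, Usp29, Snrpn, Kcnq1, Rtl1, Kcnk9, Trappc9 and Slc22a2. This was 19.1% (Wilson interval 10.4 to 32.5%), against 5.88% of all genes and 11.3% of protein-coding genes. Long genes hold more peaks, and 8 members were over 100 kb. Protein-coding genes of the same length classes gave 6.99 genes, close to the 9 observed. A peak inside the gene or within 50 kb of either end was found for 23 members (48.9%, Wilson interval 35.3 to 62.8%), against 35.4% of all genes and 37.6% of protein-coding genes, and the length classes gave 18.8. Neighbouring members share such peaks, so the 23 genes are not independent.

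Paternally and maternally expressed members were set side by side. Of 22 paternally expressed members, 1 had a promoter peak (Mkrn3), 3 a body peak (Usp29, Snrpn and Rtl1) and 10 a peak within 50 kb. Of 23 maternally expressed members, 1 had a promoter peak (Kcnk9), 5 a body peak and 11 a peak within 50 kb. Protein-coding genes of the same length classes gave 0.317, 2.57 and 8.37 genes for the paternally expressed members. For the maternally expressed members they gave 0.374, 4.15 and 9.70, so most counts lay close to this background. Over all genes the shares were 1.3%, 5.88% and 35.4%. The shares within 50 kb were 45.5% (26.9 to 65.3%) and 47.8% (29.2 to 67.04%), and these intervals overlap over most of their length. Gnas, which has products from either parent, and Herc3 were left out of this split.

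Summed over the domains, the number of peaks was close to what the density of each chromosome gave. The 26 peaks stood against 26.7 expected, a ratio of 0.973 (exact Poisson interval 0.635 to 1.43), or 4.28 peaks per Mb against 4.40. Domains differ in length, so each domain was also set beside every interval of its own length on its chromosome, taken at steps of 10 kb. Single domains differed. Of the 18, 9 lay above the chromosome density and 9 below, 5 held no peak, and the highest ratio was 3.63, at Snrpn. With so few peaks the intervals were wide, and none excluded a ratio of 1.

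**Figure D2:**
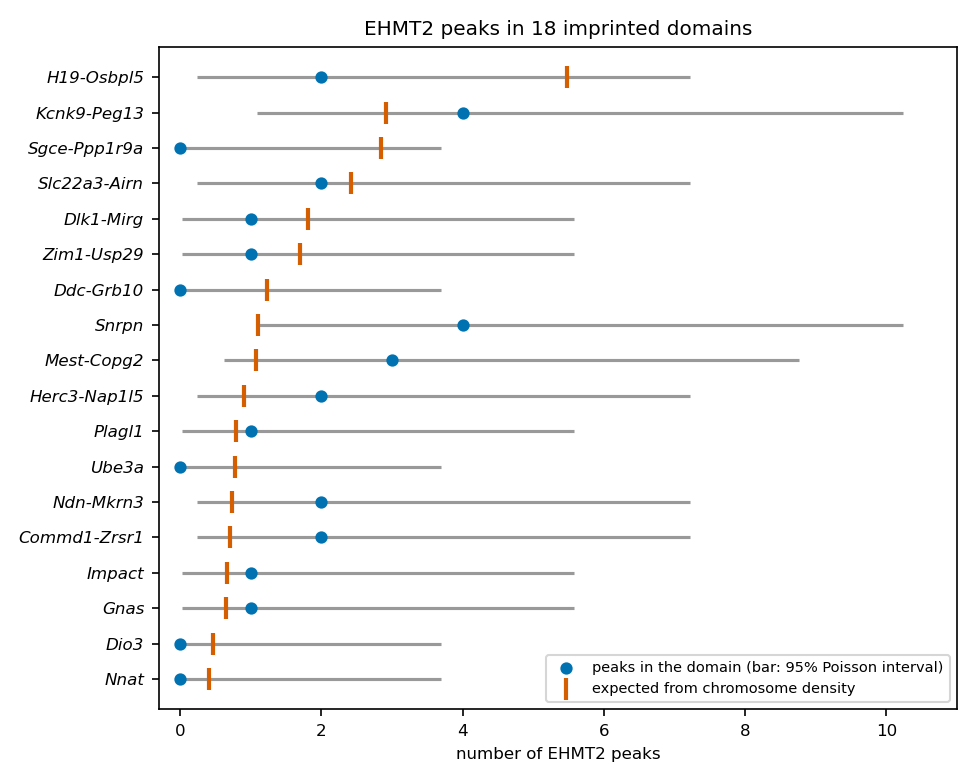
Number of EHMT2 peaks in each of the 18 domains (points, with exact 95% Poisson intervals as bars) and the number expected from the density of the chromosome (orange marks). Snrpn (4 peaks) and the H19 to Osbpl5 domain (2 peaks) lie furthest from their marks in opposite directions, and every bar reaches its mark or passes it.

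**Figure D3:**
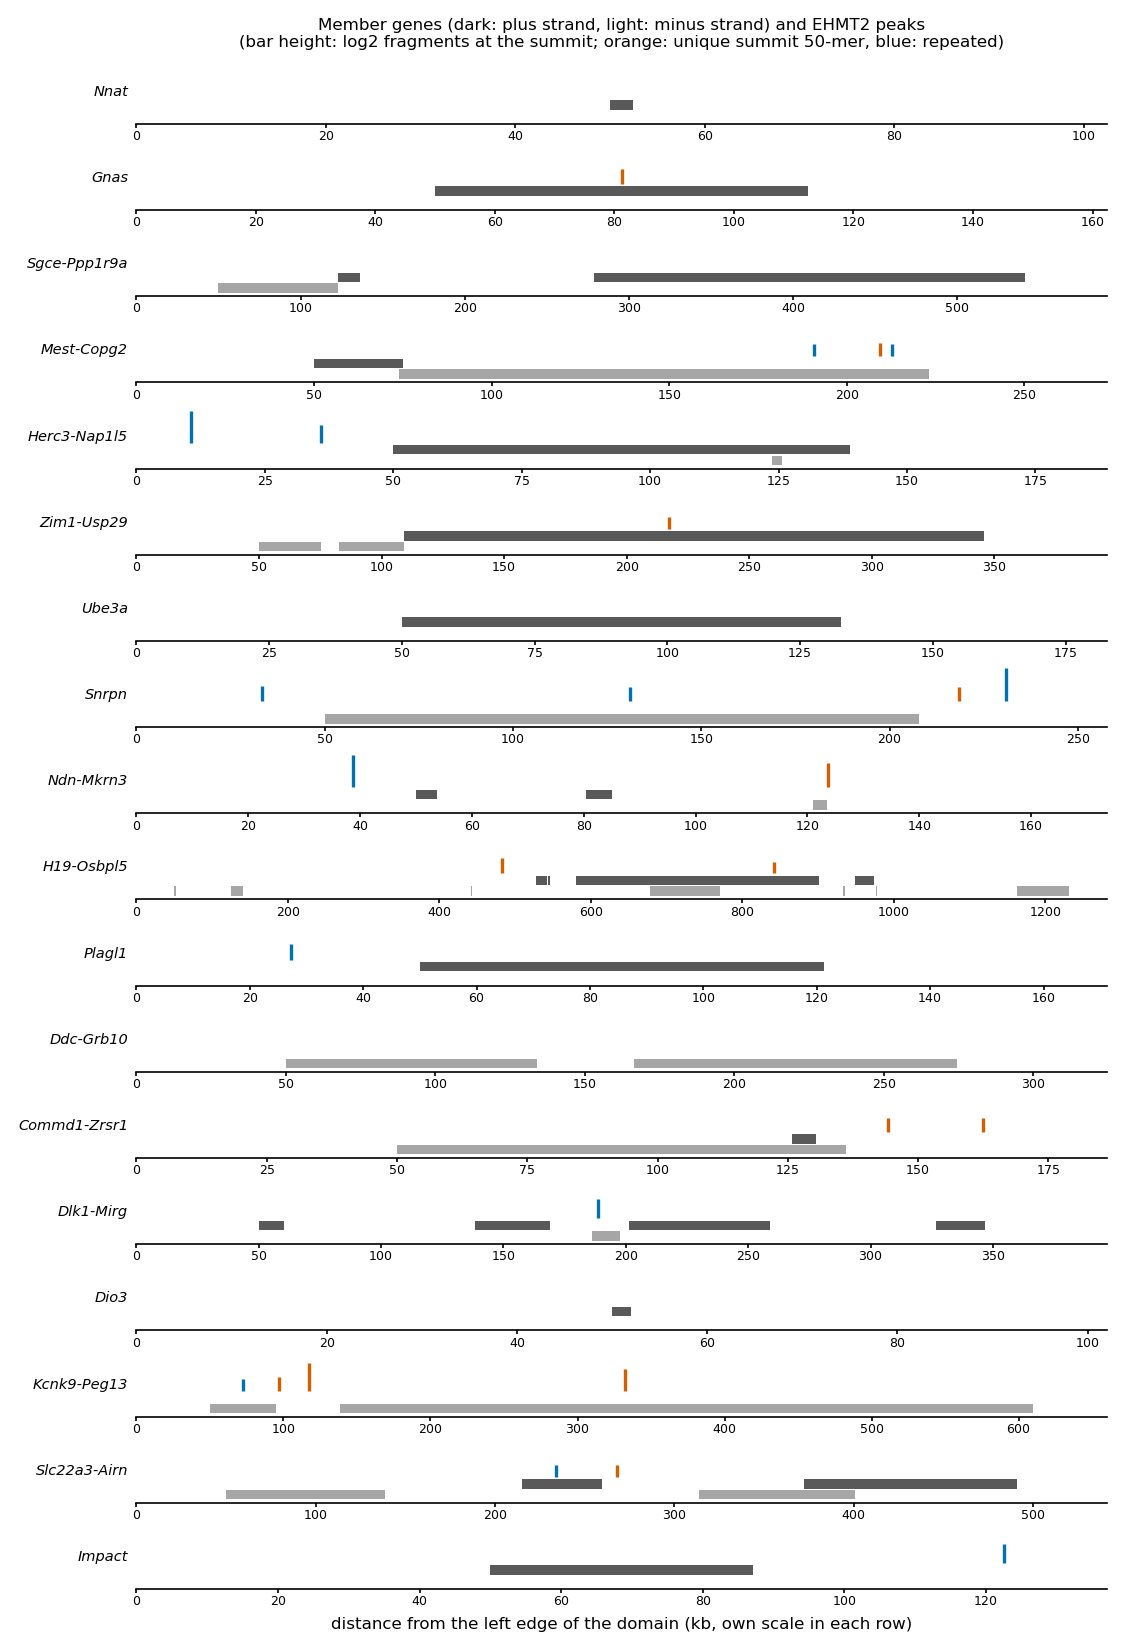
Maps of the 18 domains, with distance from the left edge in kb on a separate scale in each row. Boxes are member genes on the plus (dark) and minus (light) strand, and bars are EHMT2 peaks with height in log2 fragments, orange where the 50 bp at the summit are unique and blue where they are repeated. The tall bars lie at Mkrn3, upstream of Kcnk9, in Trappc9 and upstream of Herc3, Snrpn and Ndn.

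The Prader-Willi and Angelman region of chromosome 7 held 3 of the 6 domain peaks with at least 12 fragments. It contains Snrpn, a paternally expressed splicing factor gene, the paternally expressed MAGE family genes Ndn and Magel2 with Mkrn3, and Ube3a, a ubiquitin ligase gene expressed from the maternal copy in neurons. The Snrpn domain had 4 peaks against 1.10 expected, a ratio of 3.63 (0.988 to 9.29), and 3.54% of equal intervals held as many. The Ndn to Mkrn3 domain had 2 against 0.743, and 17.4% of intervals held as many. Ube3a had none, as did 48.1% of intervals.

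Within the Snrpn domain, 1 peak was strong and 3 were weak. The strong peak (chr7:60162663-60163875) lay 23136 bp upstream of the annotated Snrpn start, with 49 fragments, a fold of 10.9 and a −log10 q of 33.7, the highest of the 26. The others rested on 5 to 6 fragments: 1 in an intron of Snhg14 (chr7:59965822-59966066), 1 in a Snrpn intron (chr7:60063448-60063583) and 1 located 10704 bp upstream of Snrpn (chr7:60150800-60150934). The 50 bp at the summit had 8 copies in the assembly for the Snhg14 peak and 27 for the Snrpn intron peak. Reads with several equally good sites were written at a random one, so the occupied copy is uncertain for these. The third summit was unique. The peak upstream of Ndn (chr7:62334857-62335629) lay 11256 bp from the gene start, with 43 fragments, a fold of 11.5 and a −log10 q of 31.4. Magel2, between Ndn and Mkrn3, had no summit within 41 kb of its start, its nearest being this Ndn peak at 41697 bp.

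The Herc3 and Nap1l5 domain on chromosome 6 had the other deep repeat peak. Nap1l5, a paternally expressed nucleosome assembly gene, lies in an intron of Herc3. The peak 39439 bp upstream of Herc3 (chr6:58791287-58792343) had 38 fragments, a fold of 9.70 and a −log10 q of 24.8, and a weaker one lay 14069 bp upstream with 8 fragments and a fold of 3.39. The summit 50-mer of the weaker peak had 58 exact copies, so its placement is uncertain. Nap1l5 itself was 89680 bp from the nearest summit. The 3 deep peaks upstream of Herc3, Snrpn and Ndn shared more than their depth. They were 773 to 1213 bp wide against a median of 215 bp for the list, were 63.7 to 64.7% GC, and were soft-masked over their whole length. In every pair, the 201 bp around the first summit matched a stretch near the other summit, not centred on it, at 97.5% identity. Their summit 50-mers had 267, 909 and 552 exact copies in the assembly, and 1834 to 1955 other peaks in the list had similar sequence. The Snrpn and Ndn peaks lay 1934 and 2298 bp upstream of a stop-free frame (1000 codons or more, not annotated as coding), whereas the Herc3 peak had no such frame within 8 kb. The authors' alignment wrote a read with several equally good sites once, at a random one, so which copies were occupied cannot be told apart for these peaks.

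On chromosome 15, the Kcnk9, Trappc9 and Peg13 domain had 4 peaks against 2.92 expected, a ratio of 1.37 (0.373 to 3.51). Besides the promoter peak and the intron peak of Kcnk9 and the peak between Kcnk9 and Trappc9, 1 lay in an intron of Trappc9 (chr15:72783106-72783499), a trafficking complex gene expressed from the maternal copy in the brain. It had 12 fragments, a fold of 9.58 and a −log10 q of 12.2. The site was 26992 bp downstream of the start of Peg13, the paternally expressed noncoding RNA whose promoter DMR lies within Trappc9.

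In the Dlk1 to Mirg domain of chromosome 12, the single peak lay in the coding exon of Rtl1, against 1.81 expected. Rtl1 is a paternally expressed gene derived from a retrotransposon and needed in the placenta. The peak (chr12:109591301-109591463) lay 8972 bp downstream of the gene start, with 9 fragments, a fold of 6.23 and a −log10 q of 5.76. It sat on the 33-bp array printed above, and 11 other peaks in the list had similar sequence. Maternal RNAs antisense to Rtl1 are made in this stretch, and the summit was 12582 bp from the start of Rian and 50357 bp from that of Meg3. Dlk1, a NOTCH-related ligand gene, and Mirg were 138535 and 138406 bp from it. Dio3, a deiodinase gene further along the same cluster, had no peak in its domain and a nearest summit at 223521 bp.

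The H19 to Osbpl5 domain of distal chromosome 7 is the largest, with 11 members in 1.28 Mb. The count was 2 peaks, where 5.48 were expected, giving a ratio of 0.365 (0.0442 to 1.32), and 13.4% of equal intervals held as few. One lay in an exon of Tspan32 (chr7:143008015-143008144), 38856 bp upstream of Ascl2, a placental transcription factor gene, with 6 fragments and a fold of 4.10. The other lay in an intron of Kcnq1 (chr7:143367145-143367308), a maternally expressed potassium channel gene, with 4 fragments and a fold of 3.67. From H19 to Ascl2, a stretch of 391301 bp with Igf2, there was no peak, and the exact Poisson interval of a count of 0 reaches 3.69. The 93092 bp of the Kcnq1ot1 transcript held none, and its start was 70706 bp from a summit. Cdkn1c, a cell-cycle inhibitor gene, lay 93795 bp from a summit and Phlda2, which restrains placental growth, 135895 bp. The remaining members of the domain, Igf2, H19, Cd81, Tssc4, Slc22a18 and Osbpl5, had nearest summits at 44619 to 261713 bp. Only 22.9% of the domain was soft-masked, against 35.4% of chromosome 7, and it held 32.0 sites per Mb with a copy of a repeated summit 50-mer, against 65.1 on the chromosome.

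The Slc22a3 to Airn domain of chromosome 17 had 2 peaks against 2.43 expected, both with 4 fragments. One lay in an intron of Slc22a2 (chr17:12603056-12603180), on a sequence with 5370 exact copies. The other lay 8599 bp beyond the end of Slc22a2 (chr17:12636864-12637241), on a tandem array with a unit of 31 bp. The 118826 bp of Airn, the noncoding RNA that silences Igf2r on the paternal copy, had no peak, and neither had Igf2r, the clearance receptor of IGF2. From Igf2r and Airn the nearest summits were at 132577 and 104224 bp, and from Slc22a3 at 95365 bp.

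Other domains held 0 to 3 peaks, none with more than 9 fragments. Copg2, a maternally expressed coatomer gene that overlaps Mest at its end, had 3 intronic peaks of 4, 5 and 4 fragments (folds 3.68, 4.54 and 3.79), the nearest 10563 bp from its start, while Mest was 140666 bp from a summit. The Mest and Copg2 domain spans 0.273 Mb, of which 223248 bp are without N bases, and no peak can be called in the rest. Over the sequence without N, its ratio was 2.79 (0.574 to 8.14). In the Zim1 to Usp29 domain, the 1 peak was in an intron of Usp29 (chr7:6838508-6838681) with 4 fragments, and Peg3, a zinc finger gene that starts head to head with Usp29, was 108136 bp from it. Zim1 was 142117 bp away. In Gnas, the gene of a G protein alpha subunit, the 1 peak (chr2:174315522-174315740) had 6 fragments and a fold of 4.67 and lay 31319 bp downstream of the gene start on the 43-bp array.

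Near Commd1, a copper metabolism gene, and Zrsr1, the splicing factor gene in its intron, 2 unique peaks of 5 fragments each were called. One (chr11:22990403-22990566) was 8066 bp upstream of Commd1 and 71 bp upstream of Cct4, a chaperonin gene that is no member, and the other was in Fam161a. Plagl1 had a peak 22689 bp upstream (chr10:13037743-13037883) with 6 fragments and a fold of 5.06. Impact had 1 at 72530 bp from its start, with 9 fragments and a fold of 7.40. Both were wholly soft-masked, and their summit 50-mers had 51 and 524 exact copies, so the occupied copy is uncertain. No peak was found around Nnat, around Ddc and Grb10, or around Sgce, Peg10 and Ppp1r9a. The last of these domains spans 0.591 Mb with 2.85 peaks expected, and 11.04% of equal intervals were empty.

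Repeated sequence lay under a smaller share of the peaks in imprinted domains than of the rest of the list, and no test of the difference was run. At least 50% of the bases were soft-masked in 11 of 26 peaks (42.3%, Wilson interval 25.5 to 61.1%) against 81.5% of the 12528 other peaks. The 50 bp at the summit were unique in 13 of 26 (50%, 32.1 to 67.9%) against 19%. The median number of exact copies was 2 in the domains and 356 elsewhere. A position within 8 kb upstream of a stop-free frame of this length was found for 2 of 26 (7.69%, 2.14 to 24.1%) against 27.8%. For these features the share outside the domains lay beyond the interval of the domain peaks. The domain peaks were also shallower, with a median of 5.5 fragments against 8, a median fold of 4.52 against 5.23 and a median width of 163.5 bp against 215. Of the 26, 17 rested on 6 or fewer fragments, as did 35.7% of the list.

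**Figure D4:**
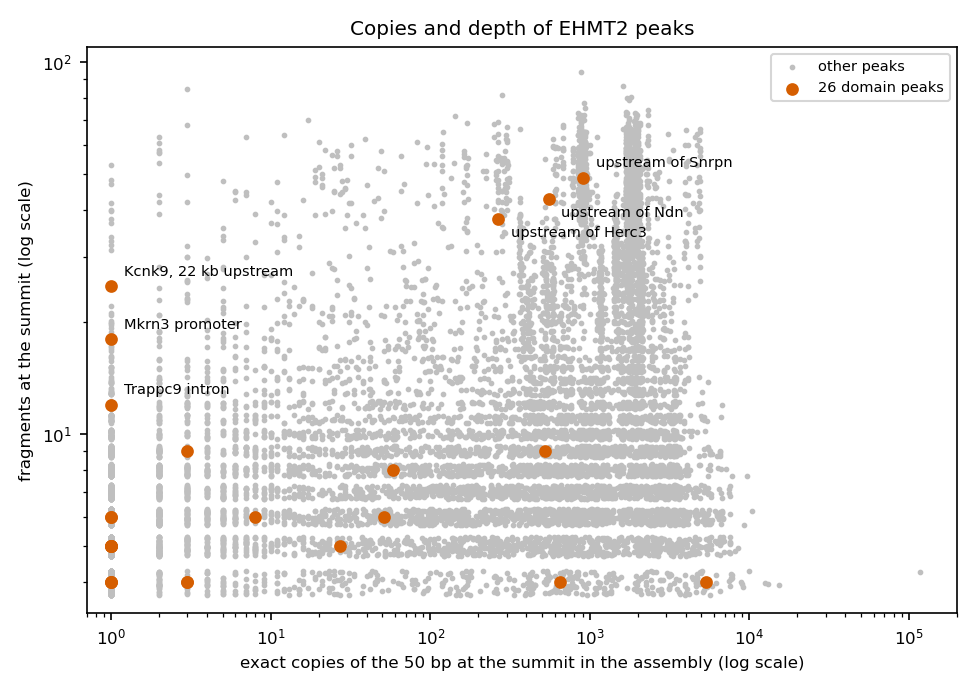
Fragments at the summit against exact copies of the 50 bp at the summit (both log axes) for the 26 domain peaks (orange) and other peaks (grey, with a small vertical jitter; 2 peaks over 100 fragments are not drawn). The 3 labelled peaks on the left, at Mkrn3, upstream of Kcnk9 and in Trappc9, have 1 copy, and the 3 upstream of Herc3, Snrpn and Ndn have 267 to 909.

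The domains themselves hold less repeated sequence. Soft-masked bases made up 26.3% of the domains and 33.2% of their chromosomes, and sites with an exact copy of a repeated summit 50-mer numbered 38.8 per Mb against 63.4. Peaks were therefore also counted by class. Peaks with a repeated summit numbered 13 against 21.0 expected, a ratio of 0.618 (0.329 to 1.06). Against the number of sites with a copy of a repeated summit 50-mer, a comparison chosen after seeing the data, 12.9 were expected and the ratio was 1.01 (0.537 to 1.72). These sites are copies of summits from the same list, and multimapping reads were written at random copies. A ratio near 1 is therefore partly built in, and the part of copy number in the lower count was not tested. Peaks with a unique summit numbered 13 against 5.71 expected from the density of such peaks on each chromosome, a ratio of 2.28 (1.21 to 3.89). They were spread over 9 domains. When each domain was left out in turn, the ratio for unique peaks stayed between 1.96 (without Kcnk9 to Peg13) and 2.48 (without Sgce to Ppp1r9a). Protein-coding genes on the same chromosomes with 50 kb on either side, 740.5 Mb in all, gave 1.13 for unique peaks and 0.871 for all peaks. Most of the unique domain peaks were shallow. At a q-value of 0.001 or lower, 3 remained (Mkrn3, the distal Kcnk9 peak and Trappc9) against 1.95 expected, a ratio of 1.54 (0.318 to 4.50).

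**Figure D5:**
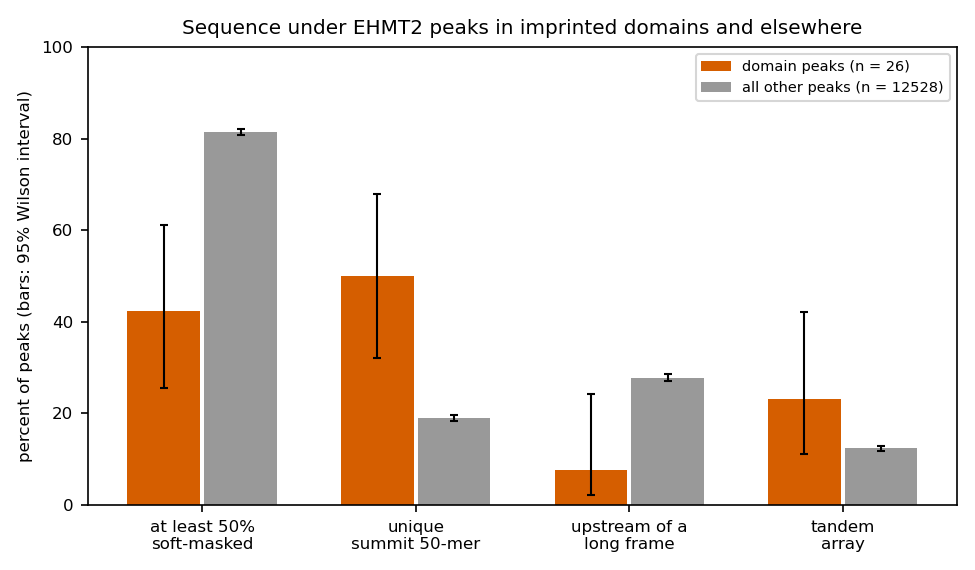
Percent of the 26 domain peaks (orange) and the 12528 other peaks (grey) in 4 sequence classes, with 95% Wilson intervals. Soft-masked peaks and peaks upstream of a long frame are fewer among domain peaks, unique summits are more frequent, and the interval for tandem arrays, 11.03 to 42.1%, includes the 12.4% of other peaks.

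Tandem arrays were counted in all peaks, with a rule chosen after the sequences had been seen. A peak was called an array if 100 positions within 150 bp of the summit matched the bases 5 to 70 bp away at 85% identity or more. Arrays lay under 6 of 26 domain peaks (23.1%, Wilson interval 11.03 to 42.1%): Gnas, Copg2, Rtl1, Trappc9, the site near Slc22a2 and the site near Impact. They lay under 12.4% of other peaks, which is within that interval. Among peaks with a unique summit, arrays lay under 3 of 13 domain peaks (23.1%, 8.18 to 50.3%) and 24.6% of other peaks. Among peaks under 50% soft-masked, they lay under 3 of 15 domain peaks (20%, 7.05 to 45.2%) and 38.4% of other peaks. Within these classes the share was thus not higher in the domains. Positions taken at steps of 10 kb along the same chromosomes were arrays in 1.46% of cases. Arrays were thus more frequent under peaks than along these chromosomes, in the domains and outside them. The units were 15 bp near Impact, 19 bp in Trappc9, 31 bp near Slc22a2, 33 bp in Rtl1, 43 bp in Gnas and 50 bp in Copg2.

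The core letters of the ZFP57 motif, TGCCGC, were searched on both strands. They occurred within 100 bp of the summit in 2 of 26 domain peaks (7.69%, 2.14 to 24.1%), the Kcnk9 promoter peak and the Fam161a peak, against 1.99% of other peaks. In the RefSeq promoters (mm10, 300 bp, of which 250 are upstream of the start), an entry was matched for 37 of 47 members, and the core was present in 13 of these (35.1%, 21.8 to 51.2%) against 13.1% of 27025 gene symbols. A symbol was counted if any of its promoters had the letters. The letters hold a CpG, and neither the number of promoters per symbol nor CpG content was matched. Of the 10 matched members with a promoter at a germline DMR, 5 had it: Mest, Nap1l5, Nnat, Plagl1 and Snrpn. None of these 5 had an EHMT2 peak at the promoter, and the RefSeq promoter of Mkrn3 lacked the letters. Kcnk9, the other member with a promoter peak, had no matched entry, and the letters were found near the summit of its promoter peak.

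The Mkrn3 site carried letters of other factors, searched after its sequence was seen. ATGGCGG, the core of the YY1 motif, and CCGGAAG, the core of ETS family motifs, were both present within 100 bp of its summit and overlap none of each other's bases. Among other peaks 1.11% had the first, 8.06% the second and 0.0319% both. Of 27025 gene symbols, 1.04% had both among their RefSeq promoters, and Mkrn3 was the single member among 37 with both. The letters could lie in different promoters of a symbol, so this share is not directly comparable with the share of peaks. A match of letters is a description and does not show that a factor bound there.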

How the data were processed

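Anti-HA ChIP-exo libraries of 2 replicates of EHMT2-dTAG-mcherry mESCs under DMSO were analysed through 1 peak list. Per the study's methods and the submitters' processing notes, the authors aligned reads to mm10 with STAR 2.7.10, which wrote each multimapping read once at a random site. They removed duplicates with Picard 2.26.0 and reads in blacklisted regions, used SAMtools 1.14, bedtools 2.30.0 and deepTools 3.5.1, merged the replicates and called peaks with MACS2 2.2.6 without a control library, keeping q-values below 0.05. The deposited values are the fold enrichment at the summit (a ratio), −log10 values of p and q, a score (10 times the −log10 q, as a whole number) and the summit position. The total depth per library is unknown. Fragments at a summit were solved from the deposited fold and p-value, and a whole number within 0.001 was found for 100% of 12554 peaks. The 2 mitochondrial peaks were left out. Columns of other samples numbered 0.

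The members and lists were chosen with earlier results of these data known. Genes came from GENCODE vM21 and sequence and soft-masking from GRCm38.p6, which has mm10 coordinates. The soft-masking carries no element names. Allelic expression and germline DMRs of members were taken from general knowledge of mouse imprinting. A summit was assigned to promoters (2.5 kb upstream to 0.5 kb downstream), gene bodies or 50 kb around a gene. Expected counts multiply the sequence of a domain without N by the peak density of its chromosome. All intervals of equal length with at most 10% N, at steps of 10 kb, replaced random intervals. Gene length classes were split at 5, 25 and 100 kb. Copies are exact matches of the 50 bp at the summit on both strands, and sites closer than 1 kb counted once. Similar peaks were BLAST 2.17.0+ matches, within 150 bp of the summits, of 150 bp or longer and 80% or more identical, and GC covers 100 bp to each side. No replicate could be left out and no test was run. Every member was accounted for. Named with values were members with a peak at the promoter or in the body and, in each domain, the member nearest to a summit. Named peaks were those at a promoter or within 5 kb of a start and the highest by −log10 q in each domain, and the other domain peaks were added after their values were seen. Counting functions were tested on simulated data. Python 3.11.15, SciPy 1.17.1, edlib 1.3.9.post1 and matplotlib 3.10.9 were used.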

Additional observations from a re-analysis of the deposited data

How the results depend on the processing

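Of 76 alternative values, 65 stayed within 1.5 times the count, or within the interval of the ratio, and 11 moved. Limited to q-values up to 0.001, the domains held 10 peaks at a ratio of 0.586, and 1 member had a promoter peak (Mkrn3), 2 a body peak and 13 a peak within 50 kb. Limited to 0.01, 5 members had a body peak. With unique summits alone, 13 peaks remained at a ratio of 2.28, and 5 members had a body peak. The whole list is shorter at each of these limits, and shares of all genes at the same limits are not given here. The lower member counts are therefore no result about the members. Without the flank of 50 kb, the domains held 15 peaks. A promoter of 1 kb on either side left 1 member. The direction of the ratio against 1 thus differed between settings, and its main interval holds 1. With each domain left out in turn, an alternative chosen after seeing the data, the ratio stayed between 0.858 and 1.13.

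No paired analysis was possible because the list pools both replicates. The list gives positions and no counts outside peaks, so a site without a peak may have been bound below the threshold. Of the 26 peaks, 17 rest on 6 or fewer fragments.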

Other observations

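Imprinted genes outside the 47 were counted in the same way, from a list of 33 that were all found in the annotation. A peak lay at the promoter of 1, Zdbf2, a paternally expressed gene of chromosome 1 whose growth role is known in the brain, with a summit 487 bp from its start. This is 3.03% (Wilson interval 0.537 to 15.3%), against 1.3% of all genes. Body peaks were found in 4: Tspan32, the noncoding RNA Snhg14 (2 peaks), Tsix, the antisense RNA of Xist (2 peaks), and Sfmbt2, a Polycomb-related gene. This is 12.1% (4.82 to 27.3%), against 5.88% of all genes. A peak within 50 kb was found for 15 of the 33 (45.5%, 29.8 to 62.01%), against 35.4%. The Tspan32 peak, 1 of the Snhg14 peaks and the peak near Nespas were already counted in the domains of the 47. Neighbours on the list, such as Zim3 and Zfp264, also share peaks, so these counts are not an independent second set. The median distance from gene start to nearest summit was 102882 bp. Klf14, a maternally expressed transcription factor gene, was the next closest, at 2585 bp. Rasgrf1 and Phactr2 were among the furthest, at 311464 and 418901 bp. Xist itself was 33862 bp from a summit.

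Genes of factors that set or keep imprints had no peak at a promoter in 18 of 18 cases, which allows a share of up to 17.6% (Wilson interval). With 1.3% of all genes having one, a count of 0 is close to the background. Body peaks lay in 2 of them, Ctcfl, a germline relative of CTCF, with 3 peaks and the nearest at 6524 bp from its start, and Zfp445, a zinc finger gene that helps to maintain imprints, with 1 peak at 10628 bp. This is 11.1% (3.10 to 32.8%), against 5.88% of all genes and 11.3% of protein-coding genes. A peak within 50 kb was found for 4 of 18 (22.2%, 9.001 to 45.2%), against 35.4% of all genes. Dnmt3l, a cofactor of germline DNA methylation, lay 24606 bp from a summit, and the DNA methyltransferase gene Dnmt3b 48729 bp. Ehmt2 and Ehmt1 lay 146287 and 588409 bp away, and Zfp57 and Trim28 lay 114947 and 164341 bp away. These counts describe peaks at the genes, not binding of the proteins.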
